A study of Mus musculus with 36 samples.

Results

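The collagen and laminin genes of the mouse embryonic telencephalon were examined across an allelic series of Chd8, which encodes a chromatin remodelling factor. Genes were taken by symbol, as collagen chains (Col followed by a type and chain number) and laminin alpha, beta and gamma chains (Lama, Lamb and Lamc), where they held at least 10 counts per library on average. Of 55 such symbols among the 46603 genes of each count table, 53 passed at E12.5 (42 collagen and 11 laminin genes) and 49 at E10.5 (38 and 11), 54 in either. Nearest to the limit at E12.5 were Col4a3 with 16.6 counts inside and Col28a1 with 5.42 outside, and at E10.5 Lama3 with 10.3 inside and Col6a4 with 7.67 outside. All genes that passed at a stage also passed the low-count filter of its test.

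RNA sequencing of C57Bl/6J embryos gave 18 libraries, from tissue described as neocortex at E12.5 and as telencephalic vesicles at E10.5. At E12.5 there were 4 genotypes with 3 libraries each and 1 embryo per library: Chd8 +/+, the heterozygote Chd8 +/-, the mild hypomorph Chd8 neo/neo and the severe hypomorph Chd8 neo/-, where the neo allele carries a cassette that disturbs splicing and every cell of the embryo carries the alleles. At E10.5 there were 2 groups with 3 libraries each and 2 embryos pooled per library: Ctrl, a combination of Chd8 f/f and Chd8 f/+ embryos, and cKO, that is sox1-Cre; Chd8 f/f, in which the Cre line deletes the floxed gene in the neuroepithelium and not by design in meninges or vessels. The question put to these genes was how much meningeal and mesenchymal matrix, against neural matrix, each library held and how it differed between the groups.

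Collagen chains wind in triplets into a triple helix, which needs a glycine to open every unit of 3 residues. Fibrillar chains (types I, II, III, V and XI) form the fibrils of connective tissue, whereas type IV chains form the net of basement membranes, and laminins, trimers of an alpha, a beta and a gamma chain, form the other sheet of the same membrane. Around the embryonic cortex the pial basement membrane lies between the endfeet of radial glia and the meninges. Meningeal fibroblasts are known as a source of type I, III and VI collagen, vessels of type IV collagen and laminin alpha 4, and the neuroepithelium of laminin alpha 1, alpha 5 and type II collagen.

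The repeat that defines the family is shown for 2 fibrillar and 2 type IV chains that were called in cKO, with glycine codons (GGN) in capitals, as 54 coding bases read 5′ to 3′ on the gene's strand from the transcripts of GENCODE vM21 (GRCm38). Col1a2 (chr6:4527082-4527135, plus strand, within a single exon) and Col3a1 (chr1:45337259-45337312, plus strand, within a single exon) were taken from the middle of the helix, and Col4a1 (chr8:11241206-11242790, minus strand, spliced from 3 exons) and Col4a2 (chr8:11404991-11408054, plus strand, spliced from 3 exons) around an early break of the repeat.
Col1a2: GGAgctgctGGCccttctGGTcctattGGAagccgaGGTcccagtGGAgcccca
Col3a1: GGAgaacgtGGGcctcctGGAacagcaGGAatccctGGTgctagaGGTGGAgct
Col4a1: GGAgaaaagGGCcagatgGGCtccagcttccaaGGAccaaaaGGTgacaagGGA
Col4a2: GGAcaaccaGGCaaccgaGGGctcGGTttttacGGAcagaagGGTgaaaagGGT
In both fibrillar chains a capital codon opens every unit of 3, whereas in both type IV chains the spacing is broken once. Over the whole coding sequence the longest unbroken run was 339 units in Col1a2 and 344 in Col3a1. It was 40 units in Col4a1, with 22 runs of at least 5 units, and 66 in Col4a2, with 24 runs. The 11 laminin genes, which form no collagen helix, held no such run.

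Col4a1 and Col4a2 lie head to head on chromosome 8, and their annotated starts overlap by 22 bases, shown in capitals because both genes fell in Chd8 neo/neo and rose in cKO (30 bases of the plus strand, chr8:11312801-11312830, GRCm38).
Col4a1 and Col4a2 starts: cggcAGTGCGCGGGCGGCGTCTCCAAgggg
The counting used no strand, so reads within these 22 bases cannot be given to one gene, a stretch that is short beside the 6.82 and 6.62 kb of exons. In the 250 bases upstream of the RefSeq start (GRCm38.p6), of which 43 of the genes have an entry, the letters GGGCGG on either strand stood in 24 (55.8%) and in 32.7% of all 32851 promoters. CCAAT stood in 32.6% against 33.9%, and TATAAA in 9.30% against 12.4%.

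Libraries held 38774591 to 61051667 counts at E12.5 and 49632937 to 68488879 at E10.5, of which the collagen and laminin genes took 0.213 to 0.308% and 0.276 to 0.379%. Levels are CPM, that is counts relative to library size, scaled by the TMM method, given as mean ± SD of 3 libraries, and the stages were scaled and tested apart, so levels of both stages stand side by side without a test. Chd8 itself was at 237 ± 2.41, 167 ± 3.04, 209 ± 5.64 and 149 ± 8.38 CPM in Chd8 +/+, +/-, neo/neo and neo/-, and at 171 ± 12.01 and 121 ± 4.78 CPM in Ctrl and cKO. These are counts over the whole gene, which include transcripts spliced into the cassette or lacking the deleted exon. The cortical marker Emx2 was present in every library, at 109 to 160.4 CPM at E12.5 and 138 to 164 at E10.5. The library Chd8 +/- replicate 2 stood apart: it was the highest of the 12 libraries for 23 of the 53 genes and values without it stand beside the results of Chd8 +/- that it moves. In bulk tissue, fewer cells of a type and less RNA per cell cannot be told apart.

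The most strongly expressed chains were those of type IV, III, II and XVIII collagen at both stages. Per kilobase of exons, the 5 highest levels at E12.5 over all 12 libraries were Col4a1 at 51.5 CPM per kb, Col3a1 at 34.4, Col4a2 at 32.2, Col2a1 at 28.4 and Col18a1 at 24.1. In Chd8 +/+ alone Col4a1 was at 55.5 ± 1.44 CPM per kb (SD, n = 3), above Col3a1 at 36.6 ± 3.91, while Col3a1 and Col4a2 at 35.2 ± 0.397 overlapped within their spread. At E10.5 the same 5 genes led in another order, with Col2a1 at 80.4 CPM per kb, Col4a1 at 65.7, Col3a1 at 42.1, Col4a2 at 40.5 and Col18a1 at 36.2. In Ctrl, Col2a1 at 79.5 ± 8.71 CPM per kb lay above Col4a1 at 57.2 ± 7.88, and Col3a1 at 35.8 ± 3.33 and Col4a2 at 33.5 ± 4.25 did not differ beyond their spread. The 5 next genes at E12.5 were Col1a1, Lamc1, Lamb2, Col5a2 and Col1a2, between 10.8 and 16.8 CPM per kb.

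**Figure D1:**
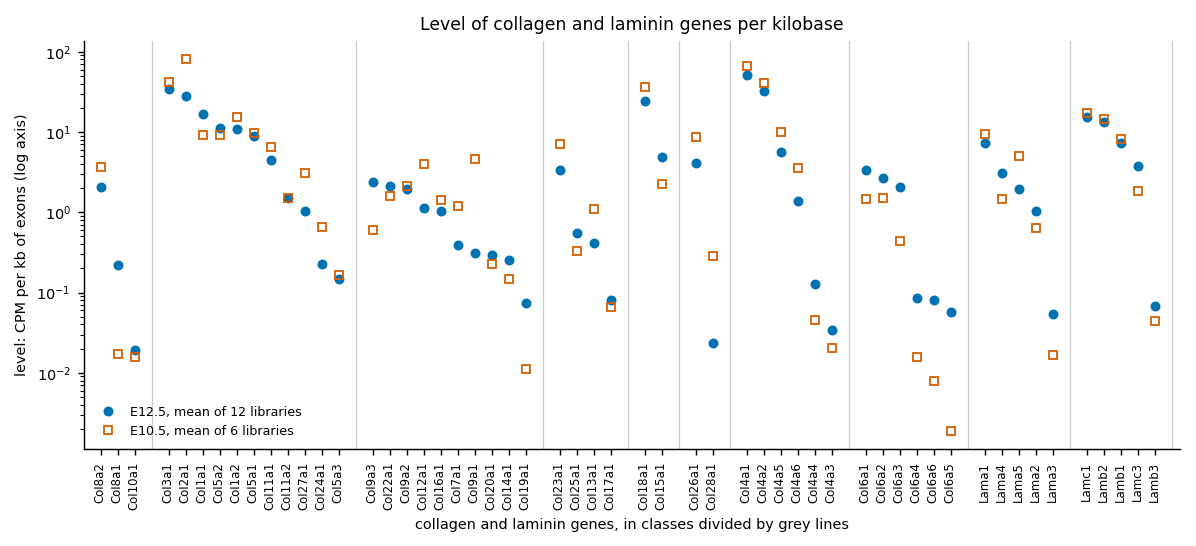
Mean level of the collagen and laminin genes (1 is not drawn) in CPM per kilobase of exons, on a log axis, over the 12 libraries at E12.5 (filled circles) and the 6 at E10.5 (open squares), with the genes on the horizontal axis in their structural classes divided by grey lines. Col4a1 and Col4a2 lead the type IV class at both stages, and Col2a1 is the highest gene at E10.5 with 80.4 CPM per kb.

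Within each class the levels spanned a wide range. Of the 6 type IV chains, Col4a5 and Col4a6 followed at 5.65 and 1.37 CPM per kb at E12.5, and Col4a3 and Col4a4, chains of kidney and other specialised basement membranes, were at 0.0346 and 0.129. Of the laminin chains, Lamc1 at 15.6, Lamb2 at 13.2, Lama1 at 7.26 and Lamb1 at 7.20 CPM per kb stood above the epithelial chains Lama3 and Lamb3, which were at 0.0542 and 0.0681. Side by side between the stages, Col9a1, a fibril-associated chain of cartilage and the eye, was at 0.661 to 5.23 CPM at E12.5 and 20.6 to 27.9 at E10.5. Its partner Col9a3 was at 7.80 to 10.8 CPM at E12.5 and 1.80 to 2.73 at E10.5, and Col6a3, a beaded filament chain, at 16.6 to 39.5 CPM at E12.5 and 3.25 to 7.30 at E10.5. The beaded filament chains Col6a4, Col6a5 and Col6a6, the short-chain Col8a1 and the fibril-associated Col19a1 passed the count limit at E12.5 alone, and Col28a1 at E10.5 alone.

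As a measure of matrix from outside the neural tissue, the CPM of 3 lists of these genes were summed in each library. The mesenchymal collagens were Col1a1, Col1a2, Col3a1, Col5a1, Col5a2, Col6a1, Col6a2 and Col6a3, of fibrils and beaded filaments. The vessel and pial basement membrane chains were Col4a1, Col4a2, Col15a1, Col18a1, Lama2 and Lama4. The neural matrix chains were Col2a1, Col25a1, Lama1, Lama5, Lamb1 and Lamc1, although Lamb1 and Lamc1 are made by many cell types.

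The mesenchymal collagens summed to 958, 774 and 879.8 CPM in the Chd8 +/+ libraries, 653, 1300.3 and 845 in Chd8 +/-, 635, 773 and 794 in Chd8 neo/neo and 725, 791 and 812 in Chd8 neo/-. All 4 groups overlapped, and the highest library of the 12 was Chd8 +/- replicate 2. Against Chd8 +/+, the log2 difference of the summed level was 0.045 ± 0.30 (SE) in Chd8 +/-, -0.25 ± 0.14 (SE) in Chd8 neo/neo and -0.16 ± 0.10 (SE) in Chd8 neo/-. Without Chd8 +/- replicate 2 the first of these was -0.22, of the opposite sign. At E10.5 the same sum was 714, 698 and 804 CPM in Ctrl and 874, 989 and 1070.1 in cKO, groups that did not overlap, with a log2 difference of 0.40 ± 0.11 (SE).

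The vessel and pial chains summed to 875 ± 21.7 CPM in Chd8 +/+, 775 ± 38.2 CPM in Chd8 +/-, 759.95 ± 31.1 CPM in Chd8 neo/neo and 862 ± 58.9 CPM in Chd8 neo/- (SD, n = 3). Every Chd8 +/- library (731, 797 and 798 for replicates 1, 2 and 3) and every Chd8 neo/neo library (725 to 786) lay below every Chd8 +/+ library (852 to 894), while Chd8 neo/- (801 to 919) overlapped Chd8 +/+ and lay above Chd8 neo/neo. At E10.5 every cKO library (1069 to 1206) lay above every Ctrl library (751 to 963). The neural matrix chains overlapped between all groups of a stage, at 482 ± 40.01 CPM, 461 ± 38.9 CPM, 479 ± 12.7 CPM and 456 ± 24.7 CPM at E12.5 and 817 ± 67.4 CPM in Ctrl and 897 ± 29.7 CPM in cKO at E10.5.

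The ratio of mesenchymal collagens to neural matrix chains was 1.85, 1.76 and 1.80 in the Chd8 +/+ libraries, 1.55, 2.61 and 1.83 in Chd8 +/-, 1.30, 1.60 and 1.71 in Chd8 neo/neo and 1.61, 1.63 and 1.86 in Chd8 neo/-. Every Chd8 neo/neo library lay below every Chd8 +/+ library, with a log2 difference of -0.24 ± 0.12 (SE). The other genotypes overlapped Chd8 +/+, and replicate 2 of Chd8 +/- held the highest value. At E10.5 the ratio was 0.935, 0.782 and 1.01 in Ctrl and 0.955, 1.08 and 1.24 in cKO, groups that overlapped, with a log2 difference of 0.26 ± 0.15 (SE). The log2 difference of the vessel and pial chains at E10.5 was 0.40 ± 0.12 (SE) and that of the neural chains 0.14 ± 0.073 (SE). The sums and ratios are given without a test, and the neural matrix sum is not shown to measure neural tissue.

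**Figure D2:**
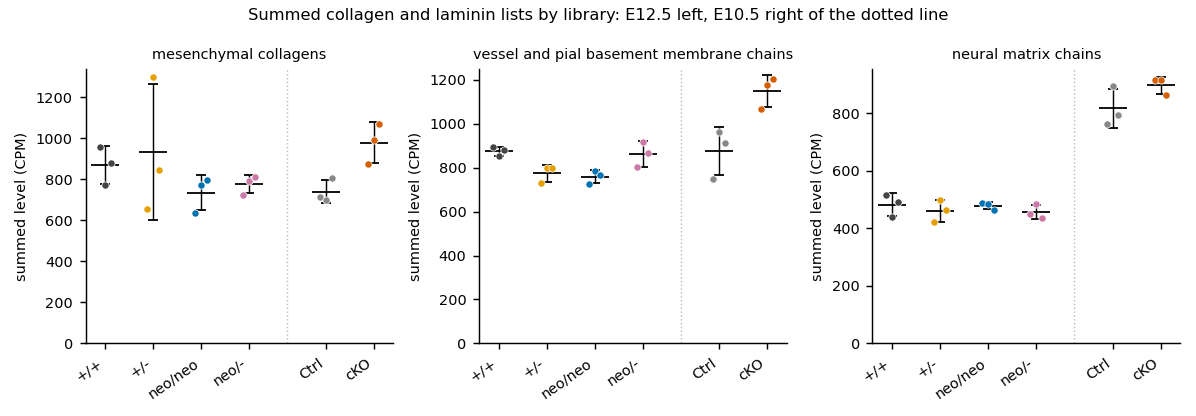
Summed CPM of the 3 lists of collagen and laminin genes, 1 point per library, by group, with the 4 genotypes of E12.5 to the left and the 2 groups of E10.5 to the right of the dotted line. Horizontal bars are means and error bars the SD of 3 libraries. The mesenchymal collagens of Chd8 +/- replicate 2 reach 1300.3 CPM, above the other 11 libraries of E12.5.

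The sums were set beside markers of the cells that could make them, on the log2 scale, in 6 relations given as descriptions. Across the 12 libraries at E12.5 the mesenchymal collagens moved with the summed level of 17 meningeal and mesenchymal markers, of which Lum, Prrx1 and Pdgfra had the highest mean CPM (Pearson's r = 0.95, Spearman's rho = 0.91). Without the 2 libraries farthest from the median of the markers r was 0.83, and without Chd8 +/- replicate 2 it was 0.88. Over deviations from the genotype means it was 0.99. Values within genotypes, here and below, keep Chd8 +/- replicate 2 and were not computed without it. The vessel and pial chains moved likewise with 9 endothelial markers led by Kdr, Cdh5 and Pecam1 (r = 0.86, rho = 0.89), with r = 0.76 without the 2 farthest libraries and 0.92 within genotypes, and 0.88 without Chd8 +/- replicate 2. For the neural matrix chains and 9 neural markers led by Tubb3, Nes and Dcx, r was -0.52 and rho -0.41, and r was 0.0069 without the 2 farthest libraries, -0.56 without Chd8 +/- replicate 2 and -0.81 within genotypes. Both sums of a pair come from the same library and share its scaling.

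The markers themselves summed to 209.96 to 257 CPM in Chd8 +/+, 196 to 371 in Chd8 +/-, 200.2 to 239 in Chd8 neo/neo and 209.5 to 254 in Chd8 neo/-, with the highest value again in Chd8 +/- replicate 2. At E10.5, with 6 libraries in which Alx4, Prrx1 and Pdgfra led the markers, r was 0.64 (rho = 0.66) for the mesenchymal collagens, and over deviations from the 2 group means it was -0.34, so that the relation did not hold within the groups. It was 0.82 (rho = 0.83) for the vessel and pial chains, and 0.66 within groups. For the neural matrix chains it was -0.75 (rho = -0.37), and -0.85 within groups. Without the 2 farthest libraries these 3 values of r were 0.59, 0.75 and -0.47, over 4 libraries.

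**Figure D3:**
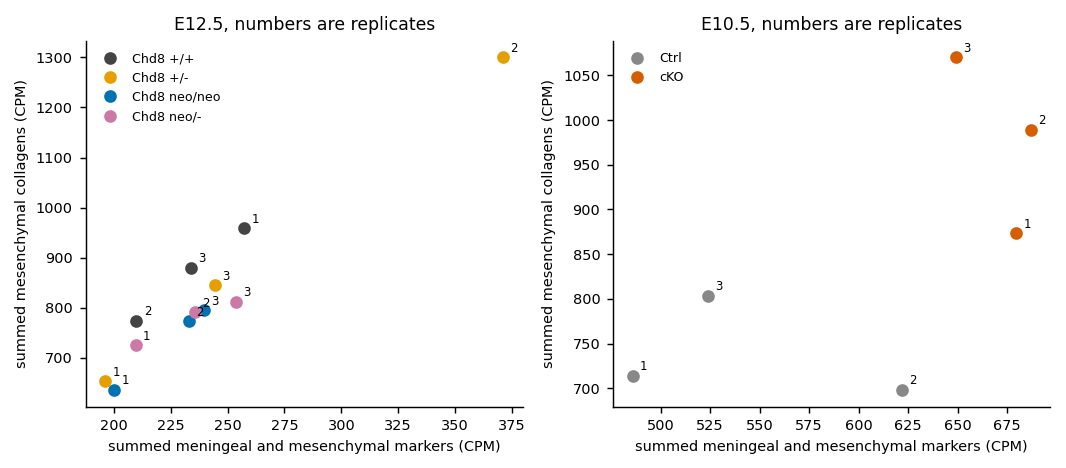
Summed mesenchymal collagens (vertical axis, CPM) against summed meningeal and mesenchymal markers (horizontal axis, CPM), 1 point per library numbered by replicate, at E12.5 (left) and E10.5 (right). At E12.5 the points lie along a rising line with Chd8 +/- replicate 2 at its upper end, and at E10.5 the 3 cKO libraries lie above and to the right of the 3 Ctrl libraries.

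The genes in which Chd8 +/- replicate 2 stood farthest above the other libraries were short-chain and fibril-associated collagens, picked here after their values were seen. Col8a2, a short-chain collagen of the corneal and vascular matrix, was at 3.34, 32.5 and 11.8 CPM in the 3 Chd8 +/- libraries and at most 14.7 in the other genotypes. Its partner Col8a1 was at 0.287, 6.26 and 1.49 and at most 0.867. Col12a1, which decorates collagen fibrils, was at 11.4, 44.3 and 17.4. In the same library Col4a1 and Col4a2, at 342 and 207 CPM, lay between the lowest and the highest of the other libraries. Lowest were Chd8 neo/neo replicate 1, for 14 genes, and Chd8 +/- replicate 1, for 13. Over the Chd8 +/- libraries, cartilage markers summed to 9.69 to 20.8 CPM and surface ectoderm markers to 6.25 to 12.5 CPM. In Chd8 +/+ they summed to 9.70 to 12.99 and 6.77 to 7.61. A high cartilage sum was not particular to Chd8 +/- replicate 2, as it was 20.5 CPM in Chd8 neo/neo replicate 2. It was 13.8 to 14.7 CPM in Chd8 neo/-. The cartilage marker Hapln1 was at 18.3 CPM in Chd8 neo/neo replicate 2 and 18.1 in Chd8 +/- replicate 2. Of the ectoderm markers, Krt5, Trp63 and Cdh1 were at 1.68, 0.774 and 2.68 CPM in Chd8 +/- replicate 2 and at most 0.210, 0.189 and 1.70 in the other 11 libraries. Krt14 and the cartilage marker Matn1, both near the floor, were at 0.205 and 0.0455 CPM there and at most 0.0893 and 0.0165 elsewhere. Epcam, Krt8 and Krt18 were instead highest in Chd8 +/- replicate 3, at 5.70, 2.43 and 2.26 CPM. The ectoderm markers summed to 12.5 CPM in replicate 2 and 12.2 in replicate 3. The part of cartilage and ectoderm cells in the levels of Chd8 +/- replicate 2 was not tested.

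Member by member, the mesenchymal list was led per kilobase by Col3a1, whose group means were 359, 363, 294 and 335 CPM in Chd8 +/+, +/-, neo/neo and neo/-. In the same order Col1a1, the alpha 1 chain of type I collagen, was at 113, 135, 98.1 and 96.2 CPM, and its partner Col1a2 at 143, 166, 115 and 113. The type V chains, which regulate fibril diameter, were at 77.5, 77.2, 73.9 and 73.1 for Col5a1 and 111, 119, 103 and 101 for Col5a2. The beaded filament chains were at 15.96, 17.8, 12.1 and 13.8 for Col6a1, 23.1, 25.4, 19.7 and 20.9 for Col6a2 and 26.97, 30.2, 19.5 and 22.6 for Col6a3. For each of these 8 genes the Chd8 neo/neo and neo/- means were below the Chd8 +/+ mean, none of them past the test against Chd8 +/+. For all 8 the highest library of E12.5 was Chd8 +/- replicate 2. Without it, all 8 were below Chd8 +/+ in Chd8 +/- as well, with log2 fold changes from -0.33 for Col1a1 to -0.054 for Col6a1 and none called.

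Of the vessel and pial chains without a call in any comparison, Col15a1, a multiplexin of vascular basement membranes, was at 32.4, 29.8, 29.6 and 32.6 CPM and Lama4, the alpha chain of endothelial laminin, at 38.6, 35.7, 32.8 and 39.95. Of the neural chains, Col2a1, which the early neuroepithelium makes beside cartilage, was at 167, 162, 193 and 160.4 CPM. Lama1, the alpha chain of the early neural basement membrane, was at 72.3, 65.9, 72.4 and 65.8, Lama5 at 23.5, 21.1, 23.7 and 21.5 and Col25a1, a transmembrane collagen of neurons, at 6.67, 8.40, 6.13 and 7.15. At E10.5 the means in Ctrl and cKO were 477 and 488 CPM for Col2a1, 82.8 and 94.9 for Lama1, 54.2 and 60.7 for Lama5 and 4.86 and 3.75 for Col25a1. They were 12.7 and 16.1 for Col15a1 and 15.8 and 19.7 for Lama4, and none of these 6 was called at E10.5.

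In the mild hypomorph Chd8 neo/neo, the 2 main type IV collagen chains and 2 laminin chains fell against Chd8 +/+ and the minor fibrillar chain Col11a2 rose. Of the 53 genes, 4 were called lower, where 4.45% of all 18810 genes tested were, and 1 was called higher, where 3.71% were (edgeR's quasi-likelihood test, two-sided, adjusted p under 0.05). The median log2 fold change of the 53 genes was -0.14, against 0.00529 over all genes, and 39 lay below 0. It was -0.086 with sex-linked expression as a covariate, -0.076 without Chd8 neo/neo replicate 1 and -0.23 without replicate 3. Xist, which marks female embryos, was at 1443 to 2013 CPM in 2 of 3 Chd8 neo/neo libraries (replicates 1 and 2), 1 each of Chd8 +/+ and Chd8 +/- and 0 of Chd8 neo/-, and at most 2.52 in the rest. In 9 of the 53 every Chd8 neo/neo library was below every Chd8 +/+ library, as in 13.5% of all genes.

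Col4a1, the alpha 1 chain of the type IV collagen of all basement membranes (chr8:11198423-11312826, GRCm38, minus strand), was at 389, 376 and 369.6 CPM in the Chd8 +/+ libraries and 302.3, 329 and 329 in Chd8 neo/neo. Its partner Col4a2 (chr8:11312805-11449287, plus strand), read from the shared start shown above, was at 236, 231 and 233 in Chd8 +/+ and 176, 199 and 199 in Chd8 neo/neo. For both genes every Chd8 neo/neo library lay below every Chd8 +/+ library. Col4a1 fell by 0.24 ± 0.061 (SE) on the log2 scale (adjusted p = 0.0301, edgeR) and Col4a2 fell by 0.29 ± 0.056 (adjusted p = 0.00972). The other 4 type IV chains were not called, and Col4a5 was at 38.995 and 38.002 CPM.

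Lamb1, the beta chain of most early laminins (chr12:31265234-31329644, plus strand), was at 79.8, 80.3 and 78.4 CPM in Chd8 +/+ and 56.7, 56.6 and 69.7 in Chd8 neo/neo, groups that did not overlap. It fell by 0.38 ± 0.079 on the log2 scale (adjusted p = 0.0136, edgeR). Lama2, the alpha chain of laminin in muscle, vessels and the pial surface (chr10:26980036-27619758, minus strand), was at 18.98, 16.6 and 20.3 CPM in Chd8 +/+ and 14.7, 14.7 and 14.1 in Chd8 neo/neo, again without overlap, and fell by 0.36 ± 0.10 (adjusted p = 0.0375, edgeR). Lamc1, the gamma chain of the same trimers, was at 133 and 123 CPM with a log2 fold change of -0.12 and was not called (adjusted p = 0.155, edgeR). Lamb2, the other main beta chain, was at 77.5 and 86.8 CPM, a log2 fold change of 0.16 (adjusted p = 0.217, edgeR).

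Col11a2, a minor chain of fibrils that are otherwise made of type II collagen (chr17:34039437-34066685, plus strand), was at 10.8, 8.45 and 8.23 CPM in Chd8 +/+ and 12.1, 11.3 and 13.7 in Chd8 neo/neo. All 3 Chd8 neo/neo libraries were above the 3 Chd8 +/+ libraries, and it rose by 0.43 ± 0.11 on the log2 scale (adjusted p = 0.0249, edgeR). By class, the called genes were 1 of 11 fibrillar, 2 of 6 type IV, 1 of 5 laminin alpha and 1 of 6 laminin beta and gamma genes. None of the 6 beaded filament genes was called, although all 6 had a log2 fold change below 0, with a median of -0.43. Col6a5 at -0.68 (adjusted p = 0.0665, edgeR) was the nearest to the threshold.

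Markers of vessels were lower on average in Chd8 neo/neo as well, but endothelial markers were lower still in Chd8 +/-. Pericyte markers summed to 80.2 to 103 CPM in Chd8 neo/neo and 99.98 to 113 in Chd8 +/+, ranges that overlapped. Endothelial markers summed to 265 to 294 and 296 to 299.5, without overlap. Their mean was 269.9 CPM in Chd8 +/- and 280.7 in Chd8 neo/neo, and every Chd8 +/- library lay below every Chd8 +/+ library. In Chd8 +/- all 9 endothelial markers had a log2 fold change below 0, with a median of -0.14 and none called. In Chd8 neo/neo 7 of 9 did, with a median of -0.039. Kdr (log2 fold change -0.17, adjusted p = 0.0236) and Abcc9 (-0.39, adjusted p = 0.00976, edgeR) fell in Chd8 neo/neo, as did Anpep. There 1 of 9 endothelial and 2 of 6 pericyte markers were called lower. None of the 17 meningeal and mesenchymal markers was called, nor any of the 4 cartilage, 4 surface ectoderm and 6 erythroid markers tested, and of 9 neural markers Pax6 and Sox2 rose and Dcx fell. The part of these cells in the fall of the type IV and laminin chains was not tested. Col4a2 was called under all 18 alternatives (adjusted p 0.000105 to 0.0369), whereas Lamb1 lost its call in 3, Col11a2 in 5, Col4a1 in 7 and Lama2 in 8. Without Chd8 neo/neo replicate 1 Col4a2 alone was called, without replicate 2 there were 2 calls and without replicate 3 there were 9, all lower, while without Chd8 +/+ replicate 1, 2 or 3 there were 3, 2 and 2.

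**Figure D4:**
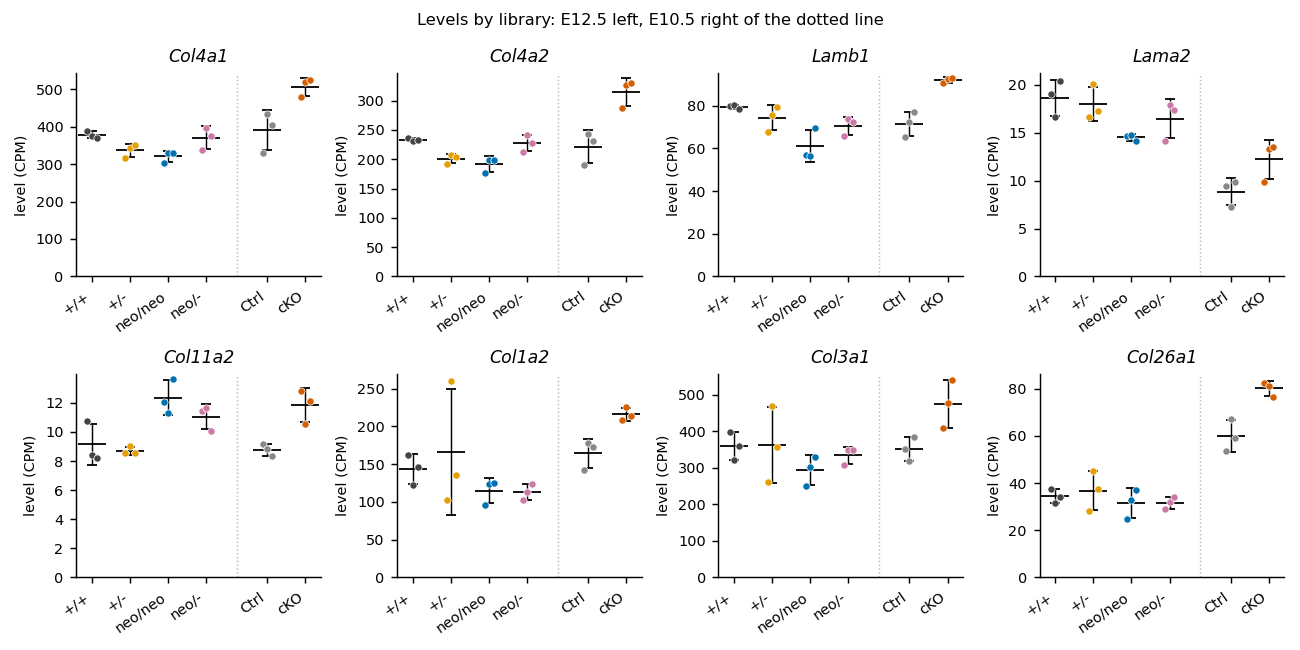
Level in CPM of 8 genes called in at least 1 comparison, 1 point per library, with the 4 genotypes of E12.5 to the left and Ctrl and cKO of E10.5 to the right of the dotted line. Horizontal bars are means and error bars the SD of 3 libraries. Col4a1, Col4a2, Lamb1 and Lama2 are lowest in mean in Chd8 neo/neo among the 4 genotypes of E12.5, Col11a2 is highest there, and at E10.5 all 8 genes have their cKO libraries above their Ctrl libraries.

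In the severe hypomorph Chd8 neo/-, none of the 53 genes was called against Chd8 +/+ with edgeR and all 4 genotypes in one model, where 11.5% of all genes were. An unadjusted p under 0.05 was reached by 4 of them and 4991 of all 18810 genes, and DESeq2 called 1, Col9a3. The median log2 fold change was -0.10, and 40 of the 53 genes lay below 0. The smallest p belonged to Col9a3, a fibril-associated chain, at 10.8, 10.5 and 9.04 CPM in Chd8 +/+ and 8.53, 7.87 and 8.45 in Chd8 neo/-. The groups did not overlap, with a log2 fold change of -0.29 ± 0.093 (SE) and an adjusted p of 0.063 (edgeR). The next were Col6a5 at -0.63, Col6a6 at -1.25, Col11a2 at 0.27 and Lamb1 at -0.17, with adjusted p of 0.0781, 0.087, 0.115 and 0.189 (edgeR). Of the other chains of type IX collagen, Col9a1 was at -0.70 and Col9a2 at -0.27, with an adjusted p of 0.472 and 0.224 (edgeR), and in both every Chd8 neo/- library lay below every Chd8 +/+ library. Leaving out Chd8 +/+ replicate 1 gave 1 call (Col11a2), Chd8 +/+ replicate 3 gave 1 (Col9a3) and Chd8 neo/neo replicate 3, which shares the estimate of the spread, gave 2 (Col9a3 and Col6a6). With edgeR on only the 2 groups compared, 5 of the genes were called, and with sex-linked expression as a covariate 4, all lower. Over all genes these 2 models called 2687 and 1928.

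Col4a1 was at 336, 397 and 376 CPM and Col4a2 at 213, 241 and 228 in the Chd8 neo/- libraries, a range that overlapped Chd8 +/+ for both. Set directly against Chd8 neo/neo, Chd8 neo/- had Col4a2 higher by 0.25 ± 0.056 and Col4a1 by 0.21 ± 0.061 on the log2 scale, with every Chd8 neo/- library above every Chd8 neo/neo library. Neither passed the test (adjusted p = 0.343 and 0.479, edgeR), and none of the 53 genes was called, where 0.0159% of all genes were. An unadjusted p under 0.05 was reached by 5 genes, Col4a2, Col4a1, Lamb1 (0.21), Lama4 (0.28) and Lama3 (0.59), all higher in Chd8 neo/-, and by 1585 of all 18810 genes, and DESeq2 called Col4a2. Endothelial markers summed to 296 to 331 CPM in Chd8 neo/- and pericyte markers to 111 to 114. Erythroid markers summed to 4304 to 6863 CPM there and 2982 to 3666 in Chd8 +/+, and Hbb-bh1 and Hba-x were called higher.

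In Chd8 +/- none of the 53 genes was called against Chd8 +/+ with edgeR, where 0.0213% of all genes were. An unadjusted p under 0.05 was reached by 9 of them and 1190 of all 18810 genes, and DESeq2 called 1, Col14a1. The median log2 fold change was -0.00236, and -0.11 without Chd8 +/- replicate 2. Col14a1, which binds collagen fibrils, was at 1.17, 1.68 and 1.17 CPM in Chd8 +/+ and 1.77, 3.73 and 2.81 in Chd8 +/-. The groups did not overlap and replicate 2 was the highest, with a log2 fold change of 1.06 ± 0.23 (SE) (adjusted p = 0.344, edgeR). Without replicate 2 it was 0.79 (adjusted p = 0.776) and without replicate 1 it was called, at 1.29 (adjusted p = 0.0401).

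Col4a2 was at 192, 207 and 204 CPM in the Chd8 +/- libraries, all below the Chd8 +/+ libraries, with a log2 fold change of -0.21 ± 0.056 (SE) (adjusted p = 0.516, edgeR) and -0.23 (adjusted p = 0.746) without replicate 2. Col18a1, the precursor of endostatin, was at 179.6, 159 and 183 CPM in Chd8 +/+ and 148, 157 and 157 in Chd8 +/-, also without overlap, with -0.17 ± 0.058 (SE) (adjusted p = 0.649, edgeR) and -0.19 without replicate 2. The remaining genes with the smallest p were Lamc3, a gamma chain of the meningeal surface, at -0.36 and Col17a1, a hemidesmosome collagen under 1 CPM in every library, at 0.85 (adjusted p = 0.649 for both, edgeR). Without replicate 2 these were -0.30 and 0.52.

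Between the mild hypomorph and the heterozygote, Col11a2 rose and Col14a1 and Col6a1 fell in Chd8 neo/neo. Of the 53 genes 1 was called higher, where 2.0% of all genes were, and 2 lower, where 3.28% were. Col11a2 was at 8.52, 9.01 and 8.58 CPM in Chd8 +/- and above that in all 3 Chd8 neo/neo libraries, and rose by 0.51 ± 0.11 (SE) on the log2 scale (adjusted p = 0.0219, edgeR). Col14a1 fell by 0.90 ± 0.23 (adjusted p = 0.0386) and Col6a1, a beaded filament chain, by 0.55 ± 0.15 (adjusted p = 0.0497), and for both the groups did not overlap. Next came Lamb1 at -0.29 (adjusted p = 0.0526) and Col25a1 at -0.46 (adjusted p = 0.0709, edgeR).

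Without Chd8 +/- replicate 2, Col14a1 was at -0.64 (adjusted p = 0.0982) and Col6a1 at -0.35 (adjusted p = 0.0731) in this comparison, both without a call, and Col11a2 at 0.53 (adjusted p = 0.0362). Lamb1 was then at -0.28 (adjusted p = 0.0993) and Col25a1 at -0.29 (adjusted p = 0.188). No label pairs the libraries of these 2 groups, so a replicate block rests on the number alone. With it, Col11a2 (0.51, adjusted p = 0.037) and Lamb1 (-0.29, adjusted p = 0.0428) were called, while Col14a1 (adjusted p = 0.0561) and Col6a1 (adjusted p = 0.06) were not (edgeR). Without Chd8 neo/neo replicate 1, Chd8 neo/neo replicate 2 or Chd8 +/- replicate 3 none of the 53 genes was called, without Chd8 neo/neo replicate 3 there were 7 calls, and without any one of the other 8 libraries 1 or 2. Of the 18 alternatives, Col11a2 lost its call in 5, Col14a1 in 11 and Col6a1 in 15. Meningeal and mesenchymal markers summed to 196 to 371 CPM in Chd8 +/- and 200.2 to 239 in Chd8 neo/neo, and their part in the difference of Col14a1 and Col6a1 was not tested.

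In cKO at E10.5, 4 fibrillar collagen chains, Col4a1 and Col4a2, and the laminin chains Lamb1 and Lamc1 rose against Ctrl, by 0.31 to 0.51 on the log2 scale. Of the 49 genes, 11 were called higher, where 5.75% of all 18435 genes tested were, and 0 lower, where 5.7% were (edgeR's quasi-likelihood test). DESeq2 also called 0 lower, and 1 of the 9 genes with a log2 fold change below 0 had an unadjusted p under 0.05. The median log2 fold change was 0.28, against -0.0019 over all genes. In 17 genes every cKO library was above every Ctrl library, as in 15.7% of all genes. The lower gene with the smallest p was Col9a3, at 2.73, 2.55 and 2.40 CPM in Ctrl and 2.06, 2.22 and 1.80 in cKO, groups without overlap, with -0.34 ± 0.14 (SE) (adjusted p = 0.155, edgeR). By class, 4 of 11 fibrillar, 2 of 6 type IV, 1 of 2 multiplexin, 1 of 4 transmembrane and 2 of 6 laminin beta and gamma genes were called, and Col26a1, an emilin-related collagen.

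Of the fibrillar chains, Col1a2 (chr6:4504814-4541544) was at 142, 178 and 173 CPM in Ctrl and 209, 226 and 214 in cKO, and rose by 0.40 ± 0.082 on the log2 scale (adjusted p = 0.013, edgeR). Col3a1 (chr1:45311538-45349706) was at 352, 318 and 383 CPM in Ctrl and 408, 478 and 540.2 in cKO and rose by 0.44 ± 0.10 (adjusted p = 0.0271, edgeR). In neither gene did the groups overlap. Col5a1 rose by 0.31 (adjusted p = 0.029) and Col11a2, at 9.15, 8.84 and 8.36 CPM in Ctrl and 12.8, 10.6 and 12.1 in cKO, by 0.43 (adjusted p = 0.0204, edgeR). Col1a1, the partner of Col1a2, had the larger log2 fold change of 0.68 ± 0.17 (SE) but was not called (adjusted p = 0.0586, edgeR). Col2a1, the highest gene per kilobase at this stage, was at 468, 533 and 429.8 CPM in Ctrl and 516, 503 and 445 in cKO, groups that overlapped, with a log2 fold change of 0.033 ± 0.086 (SE).

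Of the basement membrane chains, Col4a1 was at 330.1, 434 and 406 CPM in Ctrl and 479, 518 and 523 in cKO, and Col4a2 at 189.9, 244 and 231 in Ctrl and 287, 327 and 329.9 in cKO. All cKO libraries were above all Ctrl libraries for both, the lowest Ctrl library was replicate 1, and Col4a1 rose by 0.38 ± 0.093 (adjusted p = 0.0279) and Col4a2 by 0.51 ± 0.093 (adjusted p = 0.00938, edgeR). Lamb1 was at 65.3, 72.2 and 76.9 CPM in Ctrl and 90.4, 92.5 and 92.8 in cKO, the smallest p of the family, and rose by 0.36 ± 0.066 (adjusted p = 0.00725, edgeR). Its partner Lamc1 was at 110.1, 136 and 134 CPM in Ctrl and 151, 158 and 164 in cKO and rose by 0.32 (adjusted p = 0.0281, edgeR). Col18a1 rose by 0.31 (adjusted p = 0.047, edgeR). Lama2, at 9.38, 7.23 and 9.86 CPM in Ctrl and 9.90, 13.3 and 13.5 in cKO, did not overlap either but missed the threshold (0.47 ± 0.15 (SE), adjusted p = 0.0657, edgeR).

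The other called genes were Col26a1 (chr5:136741759-136883209, minus strand), at 53.6, 67.1 and 59.02 CPM in Ctrl and 82.4, 81.3 and 76.6 in cKO, which rose by 0.42 ± 0.079 (adjusted p = 0.00867, edgeR), and the transmembrane Col23a1, which rose by 0.34 (adjusted p = 0.0419, edgeR). Of the genes in the 3 lists, 3 of 8 mesenchymal, 3 of 6 vessel and pial and 2 of 6 neural matrix genes were called higher. Meningeal and mesenchymal markers were higher as well, at 486 to 622 CPM in Ctrl and 649 to 687 in cKO, without overlap, with 16 of 16 tested above 0 and 2 called, Pdgfra (log2 fold change 0.41, adjusted p = 0.00142, edgeR) and Tbx15. Pericyte markers summed to 49.9 to 66.4 and 75.4 to 82.1 CPM, with Pdgfrb (0.44, adjusted p = 0.022, edgeR) and Anpep called higher, and endothelial markers to 249 to 268 and 266 to 319.6, with Cdh5 called higher. Of the other marker lists, none of the 4 cartilage, 6 surface ectoderm and 6 erythroid markers tested was called, and of 8 neural markers Sox1 fell. The part of these cells in the rise of the collagens and laminins was not tested.

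Lamb1 and Col26a1 were called under all 12 alternatives at E10.5 (adjusted p 1.96e-05 to 0.0458 and 2.81e-06 to 0.048). Col4a2 and Col1a2 each lost the call in 1, Col11a2, Col4a1, Lamc1 and Col5a1 in 3, Col3a1 and Col18a1 in 5 and Col23a1 in 6. Xist was at 3.12 CPM in Ctrl replicate 2 and at 695 to 2168 in the other libraries. As Ctrl replicate 2 was the only library low in Xist, sex-linked expression as a covariate set this library apart and could not adjust for sex. The covariate ended the calls of Col3a1 and Col23a1, with 11 genes called in all. Leaving out Ctrl replicate 2 ended the same 2 calls, also with 11 genes called, so these 2 alternatives are nearly the same. Without cKO replicate 2 the count of calls was 3 (Col26a1, Lamb1 and Col11a2) and without cKO replicate 3 it was 4 (Col26a1, Col1a2, Col4a2 and Lamb1), all higher. Ctrl replicate 1 was the lowest of the 6 libraries for 25 of the 49 genes and for the summed meningeal, endothelial and pericyte markers, and cKO replicate 3 was the highest for 22 genes. Without Ctrl replicate 1 there were 8 calls and the median log2 fold change was 0.22.

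**Figure D5:**
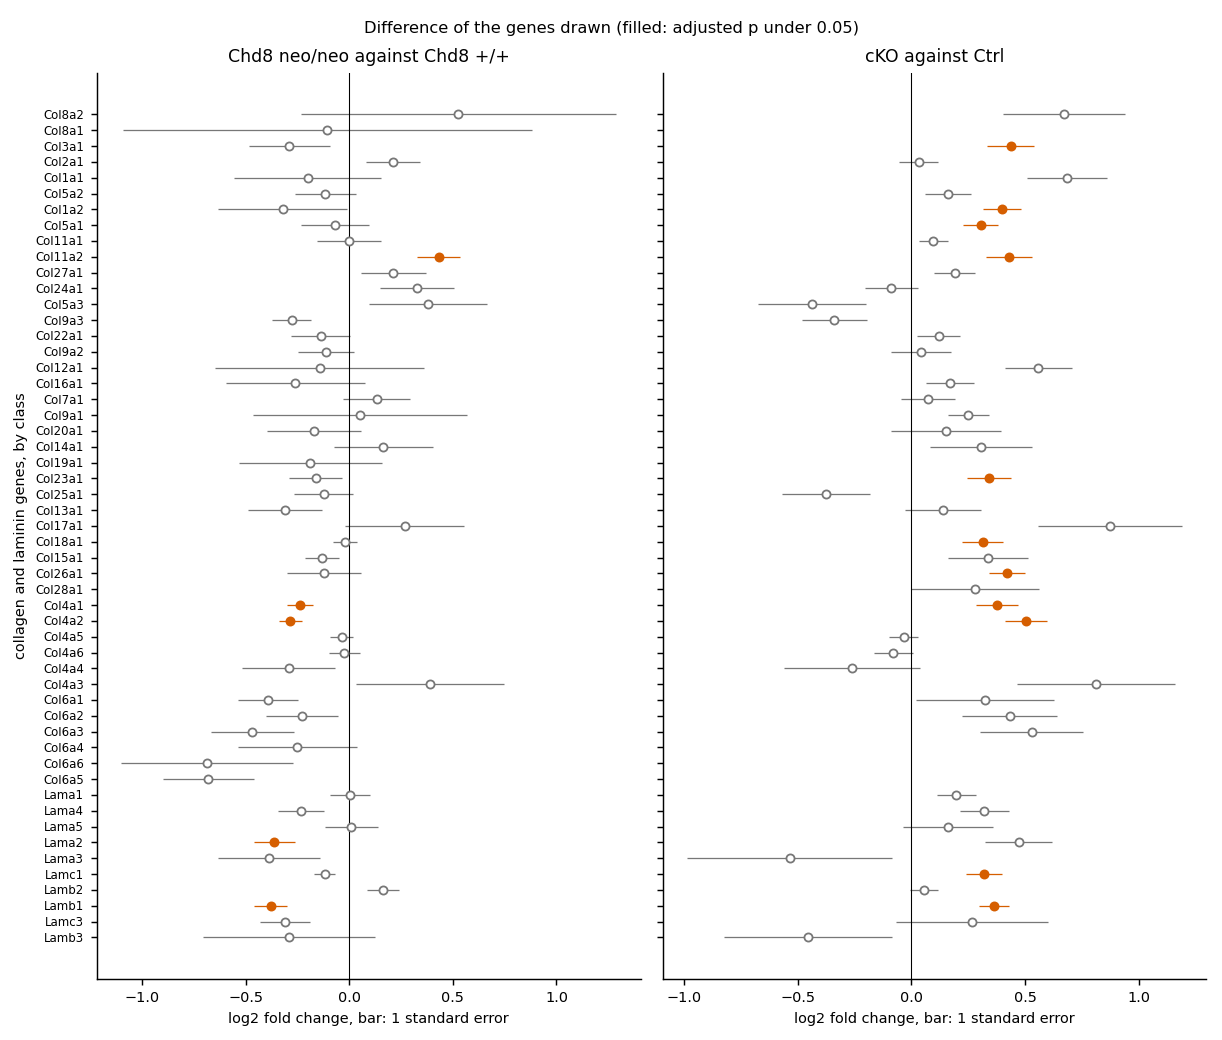
Log2 fold change of the collagen and laminin genes (horizontal axis; 1 gene, without a call, is not drawn) in Chd8 neo/neo against Chd8 +/+ at E12.5 (left) and in cKO against Ctrl at E10.5 (right), with bars of 1 standard error and genes in their classes on the vertical axis. Filled points passed the test at an adjusted p under 0.05 (edgeR): 5 of 53 on the left, of which 4 lie below 0, and 11 of 49 on the right, all above 0.

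In the classes without a call against Chd8 +/+, all 6 beaded filament genes and 9 of the 10 anchoring and fibril-associated genes had a log2 fold change below 0 in Chd8 neo/- against Chd8 +/+, with medians of -0.24 and -0.28, none past the test. In Chd8 neo/neo the fibril-associated genes had 7 of 10 below 0 and a median of -0.14. At E10.5 the 3 beaded filament genes tested (Col6a1, Col6a2 and Col6a3) were all above 0 in cKO, with a median of 0.43 and no call, and of the 9 fibril-associated genes 8 were above 0, among them Col12a1 at 0.56 ± 0.15 (SE) (adjusted p = 0.0541, edgeR). The laminin alpha chains had 4 of 5 above 0 and none called. Each set of libraries is shared by all genes of a class, so these shares describe the libraries and are not counts of independent changes.

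Other genes of the matrix were counted by lists of the same pathway. Over all genes tested, the test called 4.45% lower and 3.71% higher in Chd8 neo/neo, 11.5% in either direction in Chd8 neo/-, and 5.75% higher and 5.7% lower in cKO. Of 32 genes of collagen folding and crosslinking, 1 passed the test in Chd8 neo/neo against Chd8 +/+ (lower), 3 in Chd8 neo/- (2 of them higher) and 5 in cKO against Ctrl (4 of them higher). The gene called lower was Fkbp14, a prolyl isomerase of collagen folding, in each of the 3, with log2 fold changes of -0.38, -0.46 and -0.43 (adjusted p = 0.00624, 0.00112 and 0.0176, edgeR), where the first 2 share the Chd8 +/+ libraries. Higher in cKO were Pcolce, which enhances cleavage of the collagen propeptide (0.40, adjusted p = 0.00499), Crtap of the complex that hydroxylates collagen prolines (0.40, adjusted p = 0.00553), P4hb (0.26, adjusted p = 0.0283, edgeR) and Tll2. Of the 13 collagen and laminin receptors (integrins, dystroglycan and discoidin receptors) 0 were called in any of these 3 comparisons with edgeR, with an unadjusted p under 0.05 in 4, 0 and 3 of them, and in 4746, 4991 and 5049 of all genes.

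Of 11 partners in the basement membrane, 1 fell in Chd8 neo/neo, the laminin linker Nid2 (-0.25, adjusted p = 0.0222, edgeR), and 1 rose in cKO, Nid1 (0.40, adjusted p = 0.027, edgeR). Of 21 fibroblast matrix genes, 2 fell in Chd8 neo/neo (Eln, -0.46, adjusted p = 0.0269, and Bgn, -0.32, adjusted p = 0.0319, edgeR), and of the 18 tested at E10.5, 3 rose in cKO, led by Fbln1 (0.39, adjusted p = 0.00161, edgeR), with all 18 above 0. Of 13 proteoglycans and partners of the neural matrix, 4 fell in Chd8 neo/neo, and of the same genes 3 fell in Chd8 neo/-. Vcan was at -0.27 and -0.34 and Ncan at -0.23 and -0.23 in these 2 genotypes, and 0 of the 12 tested were called in cKO (edgeR, 3 with an unadjusted p under 0.05). Of 17 matrix proteases and inhibitors, 2 fell in Chd8 neo/neo, the membrane-bound collagenase Mmp14 (-0.36, adjusted p = 0.0053) and the protease inhibitor Timp3 (-0.27, adjusted p = 0.0368, edgeR). Mmp14 fell, with the same controls, in Chd8 neo/- (-0.49, adjusted p = 0.000253), and the gelatinase Mmp2 rose in cKO (0.59, adjusted p = 0.000387, edgeR). No pathway gene was called in Chd8 +/- against Chd8 +/+.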

How the data were processed

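mRNA of cortex from 12 embryos at E12.5 (4 genotypes) and 6 pools of 2 embryos at E10.5 (Ctrl and cKO) was sequenced in 2 runs per library. The authors deposited raw counts per gene, made per the labels with FastQC 0.11.2, Trim Galore 0.4.1, TopHat2 2.1.0 and featureCounts 1.5.0 on mm10/GRCm38. The counting used no strand setting, so reads of a gene and of an overlapping antisense gene cannot be told apart. Each table held 46603 genes, of which 46005 had a symbol, and 0 columns of counts were not mapped to a sample.

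Both runs were summed per library. Genes passing filterByExpr were tested with edgeR 4.0.16 (R 4.3.3, TMM scaling, quasi-likelihood F-test, two-sided, Benjamini-Hochberg adjustment over all genes tested), with all 4 genotypes in one model at E12.5 and a separate model at E10.5. A gene was called at an adjusted p under 0.05. The model was tested on simulated data with known fold changes first. Alternatives were DESeq2 1.42.0, RLE scaling, no filter, the 2 groups alone, the first run alone (E10.5), sex-linked expression as a covariate, the replicate number as a block, and leaving out each library. Same-numbered libraries deviated together, with every correlation over 0.1 (0.11, 0.20 and 0.20), for Chd8 neo/neo against Chd8 +/- alone.

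The genes and lists were chosen with earlier results of these data known. Named were all genes called, the 5 smallest p where fewer than 10 were called, the members of the 3 summed lists, the 5 highest per kilobase, the leading called genes of each pathway list and the 3 highest of each marker list. Genes named outside this rule, and the relations with marker sums, were chosen after their values were seen. Some items are not reported here.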

Additional observations from a re-analysis of the deposited data

Results flagged for a closer look

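For 5 basement membrane genes, every cKO library lay above every Ctrl library at E10.5, while every Chd8 neo/neo library lay below every Chd8 +/+ library at E12.5. They were picked from these same data for this pattern. Over all genes tested, 15.7% met the first condition and 13.5% the second, and the share meeting both was not counted. The log2 fold changes in cKO against Ctrl and in Chd8 neo/neo against Chd8 +/+ were 0.38 and -0.24 for Col4a1, 0.51 and -0.29 for Col4a2, 0.47 and -0.36 for Lama2, 0.36 and -0.38 for Lamb1 and 0.32 and -0.12 for Lamc1. The difference between the stages was not tested, and stage, tissue taken, kind of allele and pooling of embryos cannot be told apart. Lama2 was not called in cKO and Lamc1 was not called in Chd8 neo/neo.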

How the results depend on the processing

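With DESeq2 in place of edgeR, 1 gene was called in Chd8 +/- against Chd8 +/+, 1 in Chd8 neo/- against Chd8 +/+, 8 in Chd8 neo/neo against Chd8 +/- and 1 in Chd8 neo/- against Chd8 neo/neo. DESeq2 called 7 genes in Chd8 neo/neo against Chd8 +/+ (6 of them lower) and 16 in cKO against Ctrl (all higher). In these 2 comparisons it called 2276 and 2717 of all genes, against 1534 and 2110 with edgeR. In a model of only the 2 groups compared there were 3 calls for Chd8 neo/neo and 5 for Chd8 neo/- against Chd8 +/+, and 0 in Chd8 neo/neo against Chd8 +/-, where 12 genes had an unadjusted p under 0.05. Over all genes the first 2 of these models called 430 and 2687, against 1534 and 2158 with all 4 genotypes. With sex-linked expression as a covariate the same 3 comparisons gave 3, 4 and 1. The replicate block gave 1 call in Chd8 neo/- against Chd8 +/+, and otherwise 0, 4, 2, 0 and 16 calls in Chd8 +/-, Chd8 neo/neo, Chd8 neo/neo against Chd8 +/-, Chd8 neo/- against Chd8 neo/neo and cKO. In every comparison the labels give the libraries only a shared number. Against Chd8 +/+ the block ended the call of Lama2 in Chd8 neo/neo and gave one to Col6a6 in Chd8 neo/-.

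Leaving out 1 library at a time gave 0 to 1 calls in Chd8 +/- against Chd8 +/+, 1 to 9 in Chd8 neo/neo, 0 to 2 in Chd8 neo/-, 0 to 7 in Chd8 neo/neo against Chd8 +/-, 0 to 0 in Chd8 neo/- against Chd8 neo/neo and 3 to 13 in cKO against Ctrl. The log2 ratio of summed mesenchymal collagens ranged from -0.22 (without Chd8 +/- replicate 2) to 0.27 in Chd8 +/-, -0.33 to -0.15 in Chd8 neo/neo, -0.24 to -0.091 in Chd8 neo/- and 0.33 to 0.48 in cKO. Of 582 values of single genes under an alternative, 477 stayed on their side of the threshold, 84 lost and 21 gained a call, and 0 turned direction. The 582 also hold genes without a call in the main model, which could not lose one, so all 84 losses fell on the called genes. Where counts changed, the cause was not tested. In Chd8 +/- against Chd8 +/+ the standard error on the log2 scale was 0.23 for Col14a1, under 4 CPM, and 0.056 for Col4a2, at 176 to 241 CPM.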
